A study of Mus musculus with 9 samples.

Results

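The 38 genes described here are genes of G2, mitosis and the mitotic spindle in the mouse: cyclins, kinases, motor proteins, centromere and checkpoint proteins and the proteins of cell separation. They were taken as a named list, matched by symbol to the probes of an Illumina bead array, and each was read from 1 probe. All 38 were on the array, with 74 probes among the 45281 probes of the array. Of the 38, 30 passed the filter on detection and were tested among 13205 genes.

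Expression was measured on 9 one-colour arrays of epiblast stem cells (EpiSCs), a cultured pluripotent cell type that resembles the epiblast of the postimplantation embryo. The cells were male, of a 129 strain background, and carried the fluorescent reporter dsRed2; every group was grown with activin A at 20 ng/ml and bFGF at 10 ng/ml. The groups were cells given 3 µM CHIRON for 48 h, untreated cells sorted as dsRed2 positive, and untreated cells sorted as dsRed2 negative, each with 3 biological replicates. The labels write only CHIRON, which commonly means the GSK3 inhibitor CHIR99021. They do not say what drives dsRed2, and they leave unclear if CHIRON cells passed through the sorter, so in every comparison with them the effects of compound and sorting cannot be told apart.

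Entry into mitosis is driven by cyclin B bound to the kinase Cdk1. The spindle checkpoint then holds chromosome separation back until every kinetochore is attached, and the anaphase-promoting complex, with its activator Cdc20, ends mitosis by marking cyclin B and securin for destruction. Many genes of this programme are transcribed periodically, with a peak in G2 and M, through promoters that carry a cell cycle homology region (CHR) bound by the MuvB core complex with B-Myb and FoxM1, and CCAAT boxes bound by the trimeric factor NF-Y. Pluripotent cells divide rapidly, so RNAs of this class are abundant in cultures of them.

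Promoter sequences show how widely that pair of elements is shared among these genes. RefSeq promoter windows of build GRCm38.p6, from 250 bases before each start to the first 50 bases of the transcript, were matched by symbol for 32 of the 38 genes, with 35 windows in all. The motifs searched were TTTGAA and TTCGAA for the CHR and CCAAT for the NF-Y box, each on both strands. Of the 35 windows, 29 (82.9%) held a CHR motif, against 13.6% of the 11124 windows of genes tested on the array and 19.2% of all 32851 windows of the table. A CCAAT box was in 30 of the 35 windows (85.7%), against 37.7% of the windows of genes tested and 37.4% of all windows. Both kinds were in 27 windows (77.1%), against 5.63% and 7.52%. At least 2 CCAAT boxes were in 21 windows (60.0%), against 14.0% and 11.7%.

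The CHR matches of these genes lay close to the start site, at a median of −17 bases from it (first base of the match; 39 matches), against −132 bases in the windows of genes tested (1677 matches). For CCAAT the medians were −68 bases (69 matches) and −88 bases (6590 matches). Matches overlapped each other in 2 of the 35 windows, and a match is a description of letters, not evidence of a bound site. Aurkb, Ccna2, Kif20a, Tpx2, Incenp and Cdc25c were not in the table.

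**Figure D1:**
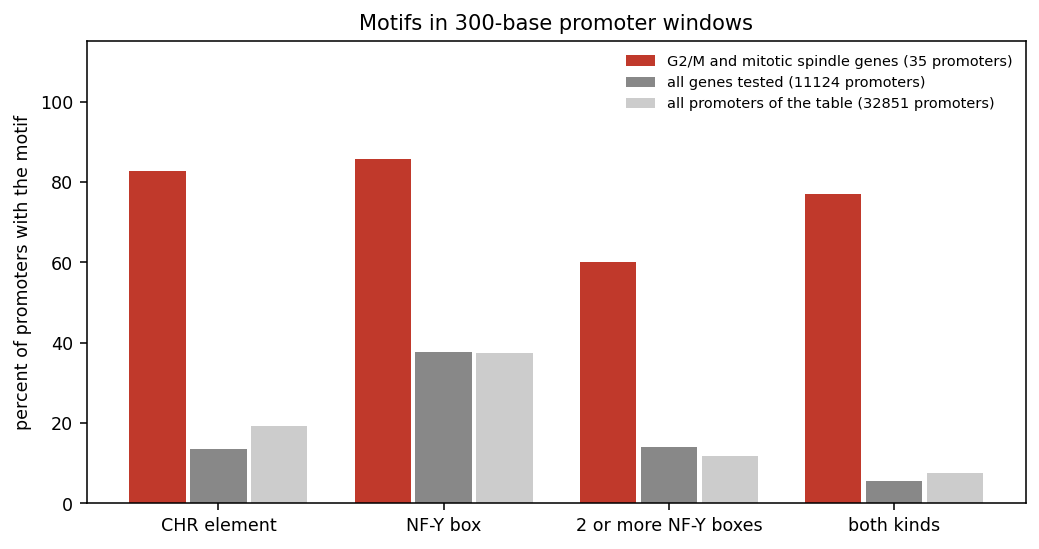
Percent of RefSeq promoter windows of 300 bases that hold a CHR motif, a CCAAT (NF-Y) box, at least 2 such boxes, or both kinds, for the mitotic genes (35 windows), the genes tested on the array (11124 windows) and the whole table (32851 windows). The bars of the mitotic genes stand at 82.9%, 85.7%, 60.0% and 77.1%, above both comparison sets for each motif.

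Upstream sequences of Mki67, Cdc20, Kif11 and Prc1 are shown because these genes fell with CHIRON and hold both motifs. That of Nusap1 is shown because it fell most and holds neither, and that of Bub3 because it holds both and was not called. Each runs 5′ to 3′ on the gene's strand and ends at the base before the start site, and capitals mark the CHR and CCAAT letters on either strand (TTCAAA and ATTGG are the reverse complements).
Mki67, chr7:135716380-135716629, minus strand: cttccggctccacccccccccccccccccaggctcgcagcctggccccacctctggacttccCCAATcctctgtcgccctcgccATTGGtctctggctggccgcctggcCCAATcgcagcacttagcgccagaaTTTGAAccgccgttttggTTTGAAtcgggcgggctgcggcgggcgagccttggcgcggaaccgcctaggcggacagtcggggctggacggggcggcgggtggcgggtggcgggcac
Cdc20, chr4:118437344-118437593, minus strand: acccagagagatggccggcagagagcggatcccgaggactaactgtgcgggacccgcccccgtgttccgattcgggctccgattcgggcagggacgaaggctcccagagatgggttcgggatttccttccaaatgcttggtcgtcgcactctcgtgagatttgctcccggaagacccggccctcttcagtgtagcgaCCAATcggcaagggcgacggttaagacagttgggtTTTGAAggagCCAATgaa
Kif11, chr19:37376132-37376381, plus strand: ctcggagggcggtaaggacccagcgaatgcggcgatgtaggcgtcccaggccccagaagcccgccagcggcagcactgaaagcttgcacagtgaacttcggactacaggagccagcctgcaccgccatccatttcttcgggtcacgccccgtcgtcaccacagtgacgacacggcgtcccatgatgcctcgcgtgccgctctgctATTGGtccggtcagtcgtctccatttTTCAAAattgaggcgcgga
Prc1, chr7:80294226-80294475, plus strand: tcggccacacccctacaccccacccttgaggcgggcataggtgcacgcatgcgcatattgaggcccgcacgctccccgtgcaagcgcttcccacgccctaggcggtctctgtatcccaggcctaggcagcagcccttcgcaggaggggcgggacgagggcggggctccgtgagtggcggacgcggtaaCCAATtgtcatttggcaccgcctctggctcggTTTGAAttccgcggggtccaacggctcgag
Nusap1, chr2:119618048-119618297, plus strand: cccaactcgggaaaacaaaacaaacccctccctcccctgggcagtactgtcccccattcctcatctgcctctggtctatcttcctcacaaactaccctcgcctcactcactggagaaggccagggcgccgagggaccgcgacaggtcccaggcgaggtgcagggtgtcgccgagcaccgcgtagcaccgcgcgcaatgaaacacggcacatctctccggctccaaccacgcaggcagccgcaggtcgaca
Bub3, chr7:131560120-131560369, plus strand: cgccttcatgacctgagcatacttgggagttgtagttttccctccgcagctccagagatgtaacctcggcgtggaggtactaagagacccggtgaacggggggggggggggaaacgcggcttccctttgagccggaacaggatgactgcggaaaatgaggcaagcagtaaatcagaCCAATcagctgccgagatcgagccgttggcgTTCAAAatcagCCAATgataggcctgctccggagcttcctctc
Mki67 has 2 CHR motifs close together with 3 CCAAT boxes before them, and Cdc20 has 1 CHR motif between 2 CCAAT boxes. Kif11 and Prc1 each have 1 CCAAT box upstream of 1 CHR motif. The Bub3 sequence has the same kind of pair, with 2 CCAAT boxes around 1 CHR motif. Birc5, Mad2l1 and Nusap1 had neither motif in their windows.

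Median signals were alike between arrays, at 95.1 to 109, but with 36.7% to 41.1% of probes detected the median probe lay near background. Signals of bright probes could differ more before normalization. Cdc20, for example, read 3347, 2018 and 2721 on the CHIRON arrays in replicate order. CHIRON replicate 3 stood apart from CHIRON replicates 1 and 2: over bright genes the SD of the log2 difference was 0.34 and 0.35 against these, and 0.12 between them. Same-group pairs of sorted arrays had 0.20 to 0.29, and the 0.12 was the smallest of all pairs of arrays. Whether CHIRON replicates 1 and 2 are less independent than the other replicates was not tested. Epiblast markers were detected on all 9 arrays for all 7 genes of the list. In CHIRON cells against dsRed2 negative cells 5 of these 7 were lower and 2 higher, while 7 of 7 primitive streak markers, 6 of 6 endoderm markers and 4 of 4 tested trophoblast markers were higher. The trophoblast list held 6 genes. Of these, Elf5 was detected on 0 arrays and Hand1 on 1 CHIRON array only, so neither was tested. Summed levels of the 4 tested fibroblast and feeder markers of 7 were 10.60, 10.61 and 13.07 (log2) on the CHIRON arrays in replicate order, 9.68 to 9.85 on the positive arrays and 10.07 to 10.99 on the negative arrays. Against negative cells Col1a1 of that list was higher by 2.55 and Thy1 lower, at −2.40, while Acta2 at 1.25 and Bgn at −0.20 were not called. Col1a1, Acta2 and Bgn were highest on CHIRON replicate 3 and Thy1 was not, and Col1a2, Col3a1 and Postn were detected on 0 arrays. Which other cell states were present, and their part in the values below, was not tested.

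CHIRON cells had less RNA of nearly every mitotic gene that could be tested than dsRed2 negative cells. Of the 30 genes tested, 26 were lower and 0 higher (limma, Benjamini-Hochberg adjusted over all 13205 genes at 0.05), and 4 were not called; an unadjusted p under 0.05 was reached by 27 of the 30, all lower, and by 48.3% of all genes. Of all genes tested, 19.9% were called lower and 20.1% higher in this comparison. The median difference of the 30 genes was −0.84 on the log2 scale, against −0.01 over all genes tested, with a range of −1.73 to 0.01. At least 2-fold and called lower were 10 of the 30, against 6.20% of all genes. In normalized values every CHIRON array lay below every negative array for 27 of the 30, which held for 25.6% of all genes.

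Against dsRed2 positive cells the values were much alike, but the CHIRON arrays are the same in both comparisons, so the second is no independent repeat of the first. Again 26 of the 30 genes were lower and 0 higher (background 20.5% of genes called lower), with a median of −0.92, against −0.02 over all genes. At least 2-fold and called lower were 11 of the 30 (6.37% of all genes), and the groups did not overlap in 27 (26.7%). The same 26 genes were called lower against both sorts, which held for 17.4% of all genes, and in 27 of the 30 every CHIRON array lay below all 6 sorted arrays (21.9%). Since the arrays measure RNA of whole cultures or sorted pools, a smaller share of cells in G2 or mitosis and less of these RNAs per cell cannot be told apart.

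**Figure D2:**
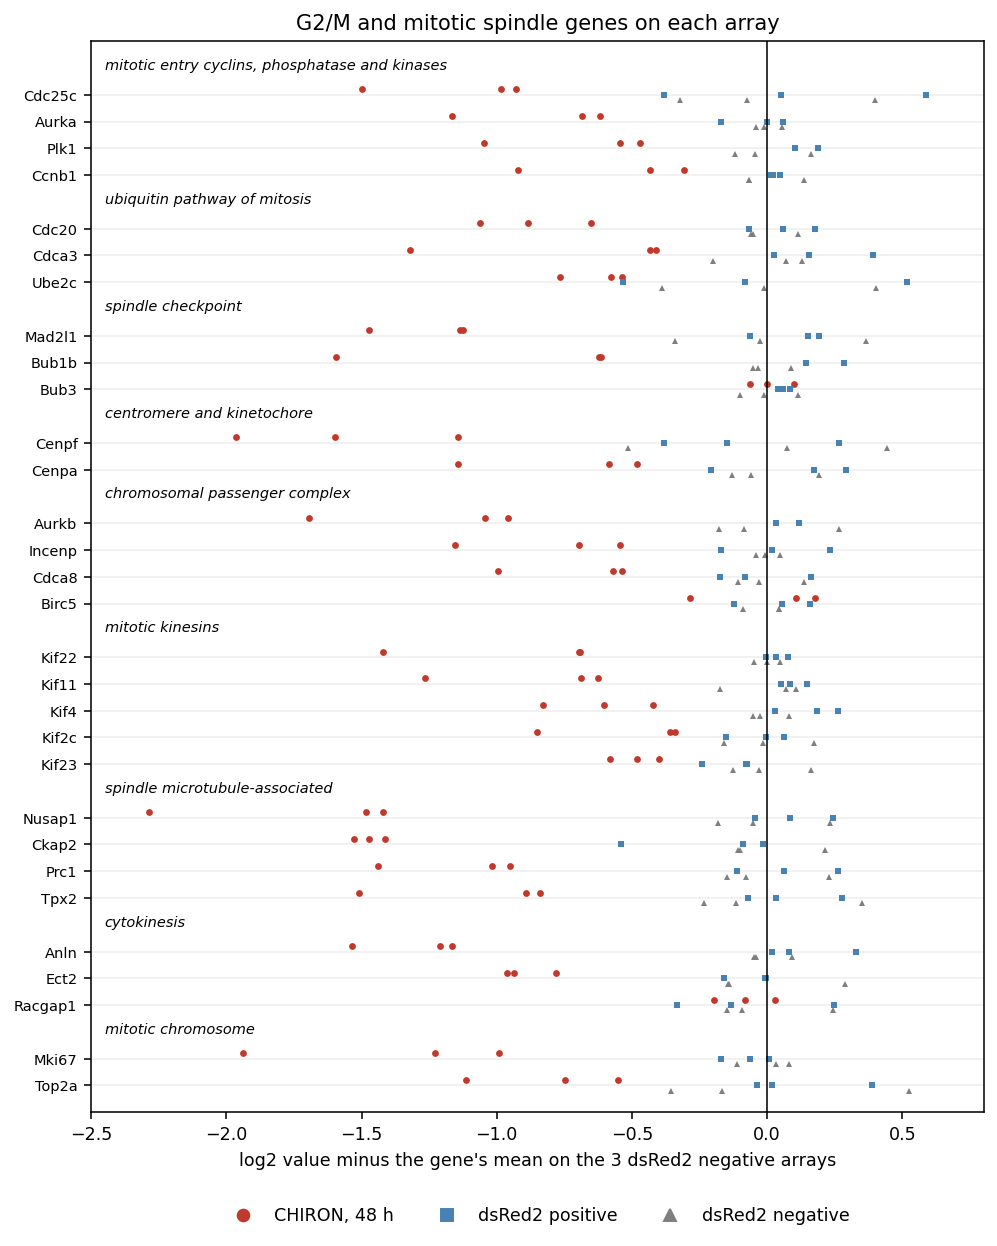
Normalized log2 value of each of the 30 tested mitotic genes on each of the 9 arrays, minus the gene's mean on the 3 dsRed2 negative arrays, grouped by role (red circles, CHIRON 48 h; blue squares, dsRed2 positive; grey triangles, dsRed2 negative). In 27 of the 30 genes all 3 CHIRON points lie to the left of all 6 sorted points; Bub3, Birc5 and Racgap1 are the exceptions.

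The filter did not decide these counts by keeping genes on one group's level alone: 28 of the 30 genes were detected on all 9 arrays, and all 26 called genes were among them. Racgap1 was detected on 2 arrays of each group. Ube2c was detected on 0 CHIRON, 2 positive and 3 negative arrays, so it passed through the sorted groups. Ccnb2, Ccna2, Bub1, Cenpe, Kif20a, Hmmr and Nek2 were detected on 0 arrays by the probe read for them, and Ttk on 1 positive and 1 negative array, so these 8 genes had no measured difference.

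Among the genes of mitotic entry, all 4 tested of 7 were lower in CHIRON cells. Aurka, the kinase that matures centrosomes and activates Plk1, had normalized log2 signals of 10.44, 10.37 and 9.89 in CHIRON cells, 11.12, 10.89 and 11.06 in positive cells and 11.11, 11.02 and 11.04 in negative cells. Every CHIRON array lay below every sorted array, with CHIRON replicate 3 lowest. Its difference from negative cells was −0.82 ± 0.15 (SE; adjusted p = 0.00172) and from positive cells −0.79 ± 0.15 (adjusted p = 0.0022). Cdc25c, a phosphatase that removes the inhibitory phosphates of Cdk1, had signals of 7.68, 7.73 and 7.17 with CHIRON, 9.25, 8.28 and 8.72 in the positive sort and 9.06, 8.34 and 8.59 in the negative sort. The sorted arrays were spread more widely here, with replicate 1 highest and replicate 2 lowest in both sorts, and the groups still did not overlap. The fall was −1.14 ± 0.26 against negative cells (adjusted p = 0.0059) and −1.22 ± 0.26 against positive cells (adjusted p = 0.00381).

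Ccnb1, the cyclin B1 gene, had signals of 10.54, 10.42 and 9.93 on the CHIRON arrays, 10.90, 10.87 and 10.87 on the positive arrays and 10.99, 10.78 and 10.79 on the negative arrays. After normalization the sorted arrays were tightly grouped, and the CHIRON arrays were all lower but more widely spread. Before normalization CHIRON replicate 1 (1901) read above positive replicate 1 (1740) and negative replicates 1 and 2 (1664 and 1804). The fall was modest and no larger than the range of the CHIRON arrays. It came to −0.55 ± 0.16 against negative cells (adjusted p = 0.0173) and −0.58 ± 0.16 against positive cells (adjusted p = 0.0134). Its partner kinase gene Cdk1, which is not among the 38, fell by about as much, with −0.61 ± 0.13 against negative cells (adjusted p = 0.00382). Plk1, the polo-like kinase that acts from mitotic entry to cell separation, differed by −0.69 from negative and by −0.82 from positive cells, both called. Under median scaling in place of quantile normalization Ccnb1 was called neither against negative cells (−0.37, adjusted p = 0.154) nor against positive cells (−0.44, adjusted p = 0.0888), and Cdk1 was not called against negative cells (−0.45, adjusted p = 0.0721). Without negative replicate 1 the call of Ccnb1 against negative cells was lost (−0.49, adjusted p = 0.0624).

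Of 3 genes that act in the ubiquitin pathway of mitosis, 2 were called lower. Cdc20, the activator of the anaphase-promoting complex in mitosis, had 11.44, 11.21 and 11.03 in CHIRON cells, 12.27, 12.02 and 12.15 in positive cells and 12.20, 12.03 and 12.04 in negative cells. Replicates lay close together in all 3 groups, and the CHIRON arrays did not overlap the sorted ones. The difference was −0.87 ± 0.14 from negative cells (adjusted p = 0.000616) and −0.92 ± 0.14 from positive cells (adjusted p = 0.000411). Cdca3, an F-box-like protein gene known as a trigger of mitotic entry, had 11.16, 11.18 and 10.28 with CHIRON, 11.99, 11.62 and 11.75 in the positive sort and 11.73, 11.40 and 11.67 in the negative sort. Here CHIRON replicate 3 lay far below the other two, which themselves lay close under the sorted arrays. The difference was −0.72 ± 0.23 from negative cells (adjusted p = 0.0274) and −0.91 ± 0.23 from positive cells (adjusted p = 0.00866). Without CHIRON replicate 3 it was −0.42 from negative cells (adjusted p = 0.0509), which ends that call, as do leaving out negative replicate 1 or 3 (adjusted p = 0.0833 and adjusted p = 0.0769) and median scaling (−0.56, adjusted p = 0.0519). A second passing probe gave −0.21 and was not called, and averaging the passing probes ended both calls (adjusted p = 0.0579 against negative and adjusted p = 0.0571 against positive cells).

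Ube2c, a ubiquitin-conjugating enzyme of the anaphase-promoting complex, was near background, with 4.60, 4.37 and 4.56 on the CHIRON arrays, 4.60, 5.06 and 5.65 on the positive arrays and 4.75, 5.13 and 5.54 on the negative arrays. The CHIRON arrays were not above background, the highest of them was only just under the lowest positive array, and replicate 3 was the highest array of both sorts. With each CHIRON array set at its lowest detected value, the negative mean was 1.41-fold higher. That figure leaves out the spread between arrays, so it is no bound on the true difference. The measured means were 4.51 ± 0.12 in CHIRON and 5.14 ± 0.40 in negative cells (SD, n = 3 each). Ube2c is counted among the 27 genes without overlap, although its CHIRON arrays were not above background. The test did not call Ube2c against negative cells (adjusted p = 0.076). It was called lower under 6 alternatives against negative cells and 3 against positive cells, among them the replicate block (adjusted p = 0.027 and adjusted p = 0.0327), array weights and leaving out positive replicate 1. Leaving out positive replicate 3 or negative replicate 1 also gave a call against negative cells (adjusted p = 0.0389 and adjusted p = 0.0411).

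In the spindle checkpoint, 2 of the 3 genes tested of 5 were lower. Mad2l1, whose protein Mad2 holds Cdc20 inactive at unattached kinetochores, had 10.20, 10.22 and 9.87 in CHIRON cells, 11.49, 11.53 and 11.28 in positive cells and 11.71, 11.32 and 11.00 in negative cells. The negative arrays were spread over more of the scale than the CHIRON arrays, and a wide gap separated the CHIRON arrays from both sorts. The difference was −1.25 ± 0.18 from negative cells (adjusted p = 0.000399) and −1.34 ± 0.18 from positive cells (adjusted p = 0.000258). Bub1b, the gene of the checkpoint protein BubR1, had 9.60, 9.61 and 8.63 with CHIRON, 10.51, 10.37 and 10.51 in the positive sort and 10.19, 10.17 and 10.31 in the negative sort. CHIRON replicates 1 and 2 agreed closely and replicate 3 was far lower. Its difference was −0.94 ± 0.23 from negative cells (adjusted p = 0.00734) and −1.18 ± 0.23 from positive cells (adjusted p = 0.00205). Without CHIRON replicate 3 the difference from negative cells was −0.62, still called.

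Bub3, the partner that carries Bub1 and BubR1 to kinetochores, was flat, with 8.01, 8.11 and 7.95 on the CHIRON arrays, 8.07, 8.05 and 8.10 on the positive arrays and between 7.91 and 8.12 on the 3 negative arrays. The 3 groups overlapped fully. Its difference was 0.01 from negative cells, with a 95% interval of −0.23 to 0.26, and −0.05 from positive cells, with an interval of −0.30 to 0.20.

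Both centromere genes tested of 3 were lower. Cenpf, a large protein of the outer kinetochore that accumulates in G2, had 5.85, 5.40 and 5.03 in CHIRON cells, 7.26, 6.61 and 6.85 in positive cells and 7.44, 7.07 and 6.48 in negative cells. The replicates of each group were scattered, but the highest CHIRON array was below the lowest sorted one. The difference was −1.57 ± 0.27 from negative cells (adjusted p = 0.00115) and −1.48 ± 0.27 from positive cells (adjusted p = 0.00157). The passing probes of Cenpf disagreed: a second gave −0.45 and another, close to background, 0.01 against negative cells. Without background correction the difference was −0.68 from negative cells, and with the passing probes averaged it was −0.67, both still called. Cenpa, the centromeric histone H3 variant, had 12.66, 12.55 and 11.99 with CHIRON, 13.43, 12.93 and 13.31 in the positive sort and 13.33, 13.08 and 13.01 in the negative sort. All CHIRON arrays lay below the sorted arrays, with replicate 3 again lowest. The difference was −0.74 ± 0.20 from negative cells (adjusted p = 0.0122) and −0.82 ± 0.20 from positive cells (adjusted p = 0.0068).

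Of the 4 genes of the chromosomal passenger complex, which corrects wrong attachments of kinetochores and guides cell separation, 3 were lower and 1 was flat. Aurkb, its kinase, had 8.98, 8.89 and 8.24 on the CHIRON arrays, 10.05, 9.96 and 10.05 on the positive arrays and 10.20, 9.75 and 9.85 on the negative arrays. The gap between the highest CHIRON array and the lowest sorted array was wider than the spread within either sort. The difference was −1.23 ± 0.19 from negative cells (adjusted p = 0.000638) and −1.32 ± 0.19 from positive cells (adjusted p = 0.000408). Incenp, the scaffold that binds and activates Aurkb, had 8.87, 8.72 and 8.26 in CHIRON cells, 9.65, 9.24 and 9.43 in positive cells and 9.41, 9.37 and 9.46 in negative cells. The groups did not overlap, and the difference was −0.80 ± 0.17 from negative cells (adjusted p = 0.00354) and −0.82 ± 0.17 from positive cells (adjusted p = 0.00284). Cdca8, the gene of borealin, differed by −0.70 and −0.67, both called.

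Birc5, the gene of survivin, is the complex's remaining subunit and is widely used as a mitotic marker. It had 11.25, 11.32 and 10.86 with CHIRON, 11.02, 11.30 and 11.20 in the positive sort and 11.05, 11.19 and 11.19 in the negative sort. CHIRON replicates 1 and 2 lay near the top of the sorted range and replicate 3 below it. The difference was −0.00 from negative cells, with a 95% interval of −0.32 to 0.32, and −0.03 from positive cells, with an interval of −0.35 to 0.29. All 3 passing probes of Birc5 were uncalled, with differences of −0.23 to −0.00 from negative cells.

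**Figure D3:**
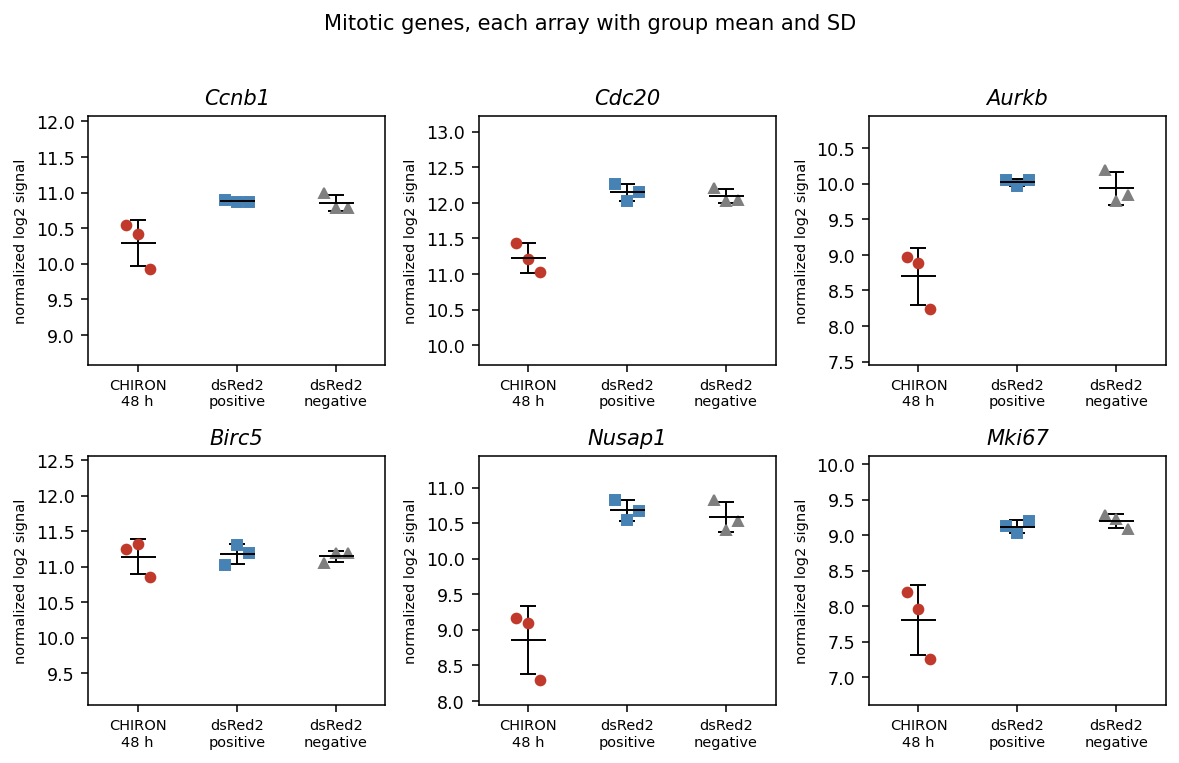
Normalized log2 signal of Ccnb1, Cdc20, Aurkb, Birc5, Nusap1 and Mki67 on each array (points), with the mean and SD of 3 arrays per group (bar and whiskers); every panel spans the same number of log2 units. The CHIRON points lie below all sorted points in every panel except that of Birc5, where the groups overlap.

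All 5 motor protein genes tested of 6 were lower. Kif22, a chromokinesin that pushes chromosome arms towards the metaphase plate, had 10.44, 10.45 and 9.71 on the CHIRON arrays, 11.17, 11.13 and 11.21 on the positive arrays and 11.18, 11.09 and 11.14 on the negative arrays. The 6 sorted arrays were nearly identical, and the CHIRON arrays were well below them. The difference was −0.94 ± 0.18 from negative cells (adjusted p = 0.00222) and −0.97 ± 0.18 from positive cells (adjusted p = 0.00172). Kif11, the kinesin that slides spindle microtubules apart to make the spindle bipolar, had 8.03, 7.97 and 7.39 in CHIRON cells, 8.71, 8.80 and 8.74 in positive cells and 8.76, 8.72 and 8.48 in negative cells. Again the sorted arrays were close together and CHIRON replicate 3 was lowest. The difference was −0.86 ± 0.17 from negative cells (adjusted p = 0.00248) and −0.95 ± 0.17 from positive cells (adjusted p = 0.00129).

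The other 3 motors moved less. Kif4, a chromokinesin that also works at the central spindle, differed by −0.62 from negative and −0.78 from positive cells. Kif2c, which takes microtubules apart at centromeres, differed by −0.52 and −0.49. Before normalization Kif2c read 1135 on CHIRON replicate 1, above replicates 1 and 2 of both sorts (982 to 1066). Kif23, the motor of the centralspindlin complex, differed by −0.49 and −0.36. All were called in both comparisons. Under median scaling the calls against negative cells were lost for Kif4 (−0.39, adjusted p = 0.141), Kif2c (−0.28, adjusted p = 0.276) and Kif23 (−0.27, adjusted p = 0.407), and against positive cells for Kif2c (−0.31, adjusted p = 0.236) and Kif23 (−0.18, adjusted p = 0.586). Kif23 lost its call against positive cells with CHIRON replicates 1 and 2 averaged (−0.35, adjusted p = 0.0777) without any one CHIRON replicate, and without positive replicate 1 or 3. Kif2c lost it without CHIRON replicate 3 against negative cells (−0.35, adjusted p = 0.0701) and against positive cells (−0.32, adjusted p = 0.0942). It also lost the call against negative cells without negative replicate 1 or 3 (adjusted p = 0.0899 and adjusted p = 0.0582) and that against positive cells without positive replicate 1 or 3 (adjusted p = 0.0823 and adjusted p = 0.1).

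The spindle microtubule-associated genes had the lowest median of the role groups: all 4 tested of 5 were lower, by 1.08 to 1.73 log2 units against negative cells. Ckap2, which promotes microtubule nucleation at spindle poles, had 8.28, 8.23 and 8.34 with CHIRON, 9.67, 9.22 and 9.74 in the positive sort and 9.65, 9.65 and 9.97 in the negative sort. It was the tightest of the CHIRON groups among the genes called, and replicate 3 was not its lowest array. The difference was −1.47 ± 0.16 from negative cells (adjusted p = 6.03e-05) and −1.26 ± 0.16 from positive cells (adjusted p = 0.000153). Nusap1, which bundles microtubules around chromosomes, had 9.17, 9.10 and 8.30 on the CHIRON arrays, 10.83, 10.54 and 10.67 on the positive arrays and 10.82, 10.40 and 10.53 on the negative arrays. It had the largest fall of the 30 genes against both sorts, at −1.73 ± 0.22 from negative cells (adjusted p = 0.000169) and −1.82 ± 0.22 from positive cells (adjusted p = 0.000116). That is 0.302 of the level of negative cells and 0.283 of the level of positive cells. Prc1, the crosslinker of the central spindle, differed by −1.14 and −1.21, and Tpx2, the activator of Aurka on the spindle, by −1.08 and −1.16, all called. The difference of Tpx2 from negative cells was −0.58 without background correction.

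Of the 3 cytokinesis genes, 2 were lower. Anln, the gene of the scaffold protein anillin of the contractile ring, had 9.69, 9.74 and 9.37 in CHIRON cells, 11.23, 10.92 and 10.99 in positive cells and 10.99, 10.86 and 10.86 in negative cells. No CHIRON array came within 1 log2 unit of a sorted array. The difference was −1.30 ± 0.14 from negative cells (adjusted p = 5.9e-05) and −1.45 ± 0.14 from positive cells (adjusted p = 3.05e-05). Ect2, the exchange factor that switches on RhoA at the division plane, was dim, with 4.82, 4.79 and 4.98 with CHIRON, 5.75, 5.75 and 5.60 in the positive sort and 6.04, 5.61 and 5.61 in the negative sort. Its CHIRON arrays were tightly grouped below the sorted arrays, replicate 3 the highest of them. The difference was −0.89 ± 0.14 from negative cells (adjusted p = 0.000665) and −0.84 ± 0.14 from positive cells (adjusted p = 0.000951); without background correction it was −0.26 from negative cells, still called. Racgap1, Kif23's partner in centralspindlin and the activator of Ect2, lay at background, with 4.77, 4.66 and 4.88 on the CHIRON arrays, 4.52, 5.10 and 4.72 on the positive arrays and 5.10, 4.76 and 4.70 on the negative arrays. The groups overlapped, and the difference was −0.08 from negative cells (95% interval −0.46 to 0.29) and −0.01 from positive cells (−0.38 to 0.36).

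Both genes of mitotic chromosomes were lower. Mki67, the proliferation marker whose protein coats mitotic chromosomes, had 8.20, 7.97 and 7.26 in CHIRON cells, 9.13, 9.03 and 9.20 in positive cells and 9.28, 9.23 and 9.09 in negative cells. The sorted arrays sat together and the CHIRON arrays were spread out below them. The difference was −1.39 ± 0.21 from negative cells (adjusted p = 0.000454) and −1.31 ± 0.21 from positive cells (adjusted p = 0.000622), that is 0.382 and 0.403 of the sorted levels. Top2a, the topoisomerase that untangles sister chromatids, had 9.70, 9.50 and 9.14 with CHIRON, 10.64, 10.21 and 10.27 in the positive sort and 10.77, 10.08 and 9.90 in the negative sort. The negative arrays were widely spread, and replicate 1 was the highest array of both sorts. The difference was −0.80 ± 0.23 from negative cells (adjusted p = 0.0182) and −0.93 ± 0.23 from positive cells (adjusted p = 0.00879). Without negative replicate 1 the first was −0.54 (adjusted p = 0.0592) and without CHIRON replicate 3 it was −0.65 (adjusted p = 0.0601), which ends the call in both cases, as does median scaling (−0.58, adjusted p = 0.0501).

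Of the genes tested, 14 had more than 1 passing probe, and of their 20 further probes 19 had lower means in CHIRON than in negative cells. By the same test over all passing probes, 14 of the 20 were called lower and 0 higher. The share called over all passing probes was not taken, so this count has no background beside it. These probes read the same genes on the same arrays, so they are no independent repeat. The 6 not called were 2 each of Birc5 and Top2a and 1 each of Cdca3 and Cenpf. Cdc25c was the only gene for which the probe with the highest mean linear signal was not the one tested, and that probe gave −1.19 against negative cells.

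The fall was present on each CHIRON array, to different depths. Relative to the mean of the negative arrays, the median of the 30 genes was −0.62, −0.69 and −1.16 on the CHIRON arrays in replicate order. It was 0.13, −0.02 and 0.06 on the positive arrays and 0.13, −0.06 and −0.05 on the negative arrays. CHIRON replicate 3 was the lowest CHIRON array for 25 of the 30 genes, against 45.3% of all genes tested. It was also the array with the high summed level of fibroblast and feeder markers given above. Whether such cells were present in that sample, and their part in its depth, was not tested. The SD between CHIRON arrays had a median of 0.29 over the 30 genes and 0.16 over all genes. For positive arrays these medians were 0.14 and 0.16, and for negative arrays 0.16 and 0.17. Without CHIRON replicate 3, 23 of the 30 genes were still called lower against negative cells (median −0.65) and 24 against positive cells (median −0.74). Of all genes, 18.1% and 18.3% were called lower in that setting.

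**Figure D4:**
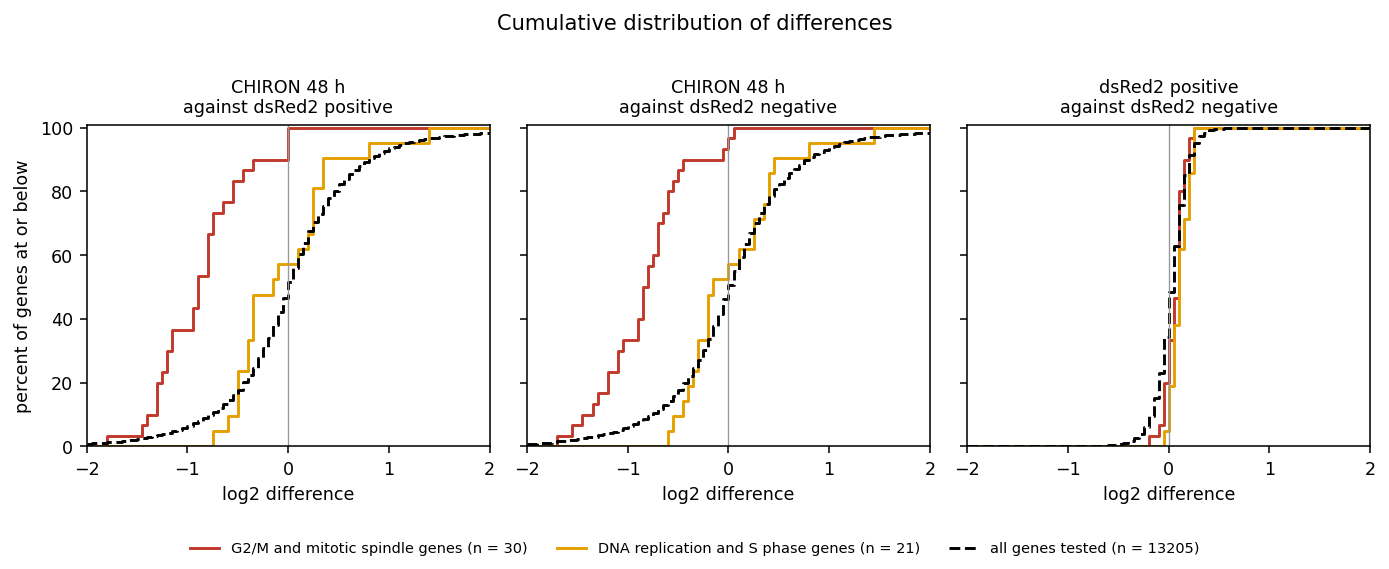
Percent of genes whose log2 difference lies at or below the value on the horizontal axis, in 3 comparisons, for the 30 tested mitotic genes, 21 tested S phase genes and all 13205 genes tested. The mitotic genes lie well to the left in both CHIRON comparisons (medians −0.92 and −0.84), and all 3 curves are steep around 0 between the sorted populations.

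Between the sorted populations the mitotic genes showed no called difference. In dsRed2 positive against dsRed2 negative cells limma called 0 of the 30, as it called 0.00% of all genes, and 0 of the 30 had an unadjusted p under 0.05 (2.80% of all genes). The differences ran from −0.22 to 0.24, with a median of 0.06, against 0.01 over all genes. Positive means were higher for 20 genes and lower for 10. The smallest p-values were those of Ckap2 (−0.22), Kif4 (0.16) and Kif23 (−0.13).

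Bub1b was the only one of the 30 whose sorted groups did not overlap, with all positive arrays above all negative ones. Its difference was 0.24 ± 0.23, an SE that includes the wide spread of its CHIRON arrays and not that of the sorted arrays alone. Of all genes, 3.63% had such a gap in that direction. Replicates with the same number deviated together in the sorted groups, so the comparison was also made within pairs. With the replicate number as a block on the 6 sorted arrays, 0 of the 30 were called and 3 of all genes. Positive was above negative in all 3 pairs for 6 of the 30 genes and below in all 3 for 0, against 15.5% and 15.0% of all genes.

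Neighbouring lists of kinetochore, chromosome and spindle genes, chosen with earlier results of these data known, also held more lower than higher calls. Of 35 other kinetochore and centromere genes, 29 were tested, and 20 were lower and 2 higher in CHIRON than in negative cells (19.9% and 20.1% of all genes). Their median was −0.63. Cenpk, an inner kinetochore subunit, had 6.25, 6.40 and 6.07 on the CHIRON arrays, 7.76, 7.59 and 7.36 on the positive arrays and 7.76, 7.54 and 7.69 on the negative arrays. Its CHIRON arrays were all well below the sorted arrays, with a difference of −1.42 ± 0.14 (adjusted p = 3.88e-05). Oip5, which helps load Cenpa, differed by −1.48, and Sgo2a, a shugoshin that protects centromeric cohesion, by −1.25. Of 15 condensin, cohesin and separase genes, 13 were tested, 8 were lower and 1 higher (19.9% and 20.1% of all genes), with a median of −0.55. Pttg1, the gene of securin, differed by −1.41 and Smc4, a core subunit of condensin, by −1.32, while Ncaph2 of condensin II was higher by 1.19.

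Of 18 other kinesin and centrosome genes, 15 were tested, 11 were lower and 0 higher (19.9% and 20.1% of all genes), with a median of −0.54. Cdk5rap2, a centrosome protein that recruits γ-tubulin, had 7.71, 7.61 and 7.40 in CHIRON cells, 9.15, 8.96 and 9.34 in positive cells and 9.07, 8.95 and 9.25 in negative cells. The gap between CHIRON and sorted arrays was wide beside the spread within groups, and the difference was −1.52 ± 0.14 (adjusted p = 2.84e-05). Aspm, a spindle pole protein, differed by −1.18, and Cep55, which acts at abscission, by −0.66. Of 13 other regulators of mitotic entry, 10 were tested, 4 were lower and 0 higher (19.9% and 20.1% of all genes), with a median of −0.39. The kinase gene Pkmyt1, which inhibits Cdk1, differed by −1.14, the phosphatase gene Cdc25b by −1.08 and Cdk1 by −0.61. Under median scaling, which called 9.70% of all genes lower, the counts of lower genes against negative cells were 8 for the other kinetochore genes, 5 for condensin, cohesin and separase, 4 for the other kinesins and centrosome genes and 2 for the other entry regulators. Without background correction the differences of several genes of these lists from negative cells shrank, to −0.79 for Cenpk, −0.63 for Pttg1, −0.78 for Smc4, −0.40 for Aspm, −0.17 for Cep55, −0.51 for Pkmyt1 and −0.33 for Cdc25b, all still called. With the passing probes averaged Ncaph2 was at 0.51 and Cdk5rap2 at −0.98, both still called.

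Of 15 genes of anaphase-promoting complex subunits and regulators, 10 were tested. Limma called 0 lower and 1 higher (19.9% and 20.1% of all genes), with a median of 0.04. An unadjusted p under 0.05 was reached by 4 of the 10 and by 48.3% of all genes. The gene called was Anapc2, a subunit of the catalytic core, at 0.76 ± 0.18 (adjusted p = 0.00733; 0.34 without background correction, still called). Anapc13 and Fzr1, the gene of the activator Cdh1, each had −0.32 and were not called (adjusted p = 0.079 and adjusted p = 0.0776). These counts depended on the processing: without background correction 2 genes were called lower and 3 higher, and with the deposited values 1 lower and 3 higher. Anapc13 was called lower in both of these settings (adjusted p = 0.0384 and adjusted p = 0.0499). Fzr1 was called lower without background correction (adjusted p = 0.0357) and with the passing probes averaged (−0.58, adjusted p = 0.005). Without negative replicate 2 the number called lower was 1.

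Of 20 genes that regulate transcription of the mitotic programme, 15 were tested, and 4 were lower and 2 higher in CHIRON than in negative cells (19.9% and 20.1% of all genes), with a median of −0.03. The number lower was 1 under median scaling and 2 without CHIRON replicate 2. Among the subunits of NF-Y, the CCAAT-binding factor, Nfyc was higher by 1.35 ± 0.13 (adjusted p = 3.85e-05) and Nfyb lower, at −0.95 ± 0.13 (adjusted p = 0.000353). E2f6, a repressor of the E2F family, was higher by 1.02. Outside the rule for named genes, and picked after their values were seen, Nfya, another NF-Y subunit, was at −0.18 and not called, Foxm1 was at −0.85 ± 0.15 (adjusted p = 0.00146) and Mybl2, the gene of B-Myb, at −0.57 ± 0.19 (adjusted p = 0.0349). The call of Foxm1 was lost under median scaling (−0.59, adjusted p = 0.0616). The call of Mybl2 was lost under 8 alternatives, among them leaving out CHIRON replicate 3 (−0.35, adjusted p = 0.0982).

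Of 25 genes of DNA replication and S phase, 21 were tested, and 3 were lower and 3 higher in CHIRON than in negative cells (19.9% and 20.1% of all genes), with a median of −0.19. Median scaling gave 0 lower and 5 higher, and the number higher ran from 1 to 5 when 1 replicate was left out (1 without negative replicate 1, CHIRON replicate 1 or CHIRON replicate 2, and 5 without CHIRON replicate 3). Cdc45, of the replicative helicase, was at −0.55 and Cdt1, which licenses origins, at −0.61, both called, while Ccne2, a cyclin of S phase entry, was higher by 1.42 (0.60 without background correction). Both calls were lost under median scaling, for Cdc45 at −0.32 (adjusted p = 0.218) and for Cdt1 at −0.39 (adjusted p = 0.182). Whether this list differs from the mitotic genes was not tested.

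Of 14 CDK inhibitor, D cyclin and arrest genes, 12 were tested, 6 were higher and 3 lower (20.1% and 19.9% of all genes), with a median of 0.49. Cdkn2a, the locus of p16 and p19 Arf, had 8.37, 8.61 and 9.92 with CHIRON, 4.79, 5.14 and 4.98 in the positive sort and 5.28, 5.72 and 5.21 in the negative sort. It was higher on every CHIRON array than on any sorted array, highest on replicate 3, with a difference of 3.56 ± 0.33 (adjusted p = 2.64e-05), and 2.12 without background correction. Ccnd1, the cyclin D1 gene, was higher by 1.96 ± 0.20 (adjusted p = 3.98e-05), and Ccng1, a p53-induced cyclin gene, was lower, at −1.49 ± 0.13 (adjusted p = 1.31e-05; −0.72 with the passing probes averaged).

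**Figure D5:**
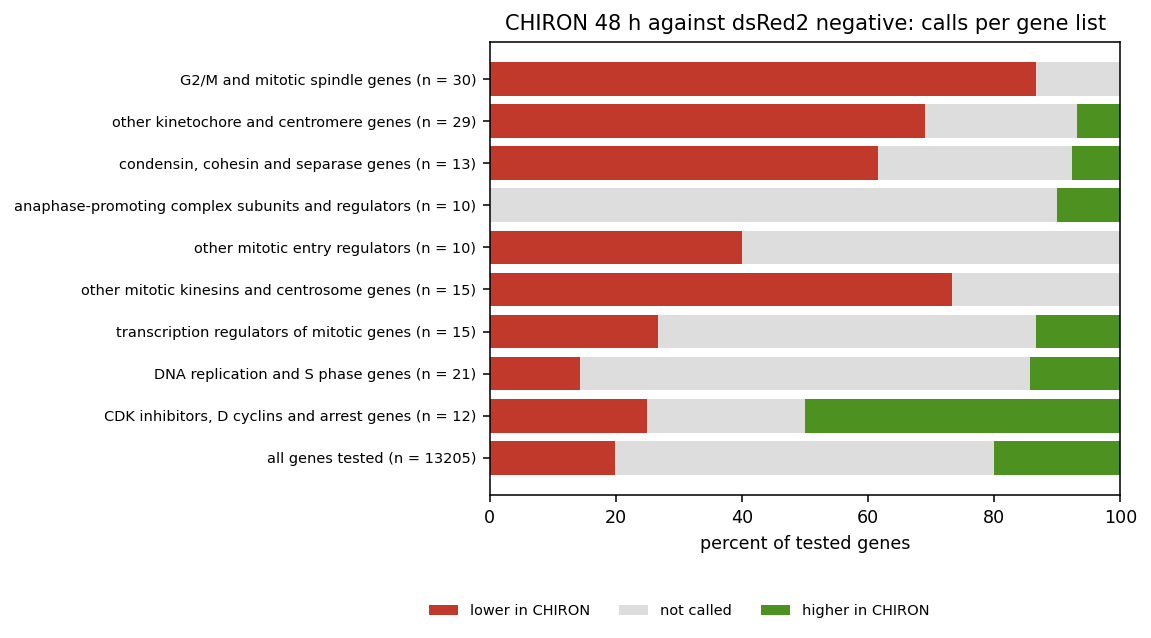
Percent of tested genes called lower, not called and called higher in CHIRON 48 h against dsRed2 negative cells, for the mitotic genes, 8 neighbouring lists and all genes tested. The mitotic genes have 26 of 30 lower and 0 higher, the anaphase-promoting complex 0 of 10 lower, and the S phase list 3 of 21 lower and 3 higher.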

How the data were processed

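RNA of 9 samples was labelled and hybridised to one-colour Illumina arrays, 1 per sample. The deposited signal intensity is the bead signal per probe and array, linear and not normalized, per the file headers, and each has a deposited detection p-value. The authors' deposited log2 values, normalized with lumi per the submitters' processing notes (version and method not given in the sources used here), served as an alternative; their medians were 6.09 to 6.10.

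Background was removed by normexp, with parameters from the detection p-values and 16 added, before quantile normalization and a log2 transform (limma 3.58.1, function neqc, R 4.3.3). Probes with a detection p under 0.05 on at least 3 of 9 arrays were kept (19074 probes, 13205 genes), and each gene was read from its passing probe with the highest mean. One model with group as the only term was fitted to all 9 arrays (lmFit, eBayes), two-sided, with Benjamini-Hochberg adjustment over all genes at 0.05; the procedure was tested on simulated data. The samples are biological replicates per the series' design text, and 3 arrays per group limit the precision.

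Deviations from the group means correlated by 0.54, 0.58 and 0.35 between positive and negative samples of the same number, so these numbers pair the sorted samples. For CHIRON against either sort the same-numbered correlations ran only from −0.14 to 0.10, so the numbers showed no such pairing there. A fit with the replicate number as a block was an alternative, beside other background correction, scaling, filters, probe rules, sample subsets, array weights and leaving out each replicate.

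The genes and lists were chosen with earlier results of these data known. Array values were given for the pair of genes with the smallest p in each role group and for Mki67, Ccnb1, Aurkb and Cdc20, and, chosen after their values were seen, for the 4 genes not called (Ube2c, Bub3, Birc5 and Racgap1) and for Cenpk, Cdk5rap2 and Cdkn2a; from each neighbouring list the 3 genes with the smallest p were named. Motifs were counted in RefSeq promoter windows; no genome was used.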

Additional observations from a re-analysis of the deposited data

How the results depend on the processing

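Of the 26 mitotic genes called lower, 20 kept their call against negative cells and 22 against positive cells under every alternative run, and no called gene changed direction. The number called lower ran from 20 to 27 and from 23 to 27 under the other settings, and from 23 to 27 and 24 to 26 when 1 replicate was left out. Across all settings, the share of all genes called lower against negative cells ran from 8.10% (no filter) to 23.4% (detected on all 9 arrays). Against positive cells it ran from 8.36% (no filter) to 25.1% (array weights). Median scaling gave the lowest counts (20 and 23), with 9.70% and 10.8% of all genes called lower. It moved the median of the list to −0.64 against negative cells, and the median of all genes to 0.14 and 0.12. Against negative cells the share of higher genes among all called was 68.7%, and 50.2% with quantile normalization. Leaving out 1 replicate gave medians of −0.93 to −0.65 against negative cells, the smallest fall being without CHIRON replicate 3. With the replicate block on all 9 arrays 27 genes were lower in each CHIRON comparison (21.1% and 21.7% of all genes) and 0 were called between the sorts. The block changed no call other than that of Ube2c, which was called lower against both sorts (adjusted p = 0.027 and adjusted p = 0.0327). Between the sorts, 0 of the genes were called under any alternative. Of 4 genes not called, the flat ones changed sign without a call. Against negative cells Birc5 was at 0.14 under median scaling, 0.0024 with the deposited values and 0.093 with array weights (−0.090 to 0.14 with 1 replicate left out), Bub3 at −0.011 with the deposited values and −0.0067 with CHIRON replicates 1 and 2 averaged (−0.038 to 0.068), and Racgap1 at 0.042 under median scaling (−0.16 to 0.038). Against positive cells Birc5 was at 0.038 under median scaling and 0.067 with array weights (−0.12 to 0.11), Bub3 at 0.17 under median scaling, and Racgap1 at 0.077 under median scaling, 0.0013 with the deposited values and 0.019 with CHIRON replicates 1 and 2 averaged (−0.14 to 0.15). The cause of these changes was not tested. A fit with the slide as a block was not run, because the headers name no slides. With 3 arrays a group an exact permutation test cannot give a p under 0.1. The 8 genes not detected carry no information on a fall. Ube2c, Racgap1 and Ect2 lay close to background, where the size of a difference depends on the background correction. For Ect2 against negative cells it was −0.89 with the correction and −0.26 without it.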
